A study of Mus musculus with 4 samples.

Results

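The ErbB receptor family of the mouse has 4 genes, *Egfr*, *Erbb2*, *Erbb3* and *Erbb4*, and all 4 were found by symbol among the 52636 genes of the expression table. Their transcripts were followed in luminal mammary cells of 6-week-old mice on a C57BL/6N background. The control mice were *Erbb3* +/+;MMTV-Cre (WT), and the others were *Erbb3* V943R/V943R;MMTV-Cre (mutant). Both genotypes therefore carried MMTV-Cre, which drives recombination in the mammary epithelium. Glands of 3 mice per genotype were pooled, sorted for luminal cells and read as 2 droplet 3′ libraries, called A and B here within each genotype. Each genotype was thus 1 pool, so no test between genotypes was possible. The 2 libraries of a pool were repeats of the handling and not of the animals. Intervals in brackets are 95% intervals that cover counting error only.

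The 4 receptors are single-pass membrane proteins that pair after a ligand has bound. In a pair, the kinase domain of one receptor (the activator) holds the kinase domain of the other (the receiver) in its active form. ERBB2 binds no known ligand and ERBB3 has a pseudokinase domain with very weak activity, so the ERBB2-ERBB3 pair relies on both partners. In the mammary gland EGFR and its ligand amphiregulin are known for ductal growth at puberty, and ERBB4 for the secretory epithelium.

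The substitution V943R lies in the activator face of the ERBB3 kinase domain. The question put to these cells was what happens in luminal epithelium whose ERBB3 carries it. In the GENCODE annotation of GRCm38, *Erbb3* lies on the minus strand of chromosome 10 from 128567523 to 128589652. The codon that V943R replaces lies at 128571649 to 128571651, in exon 23 of 28. The windows below show this codon in capitals with the 4 codons on either side in lower case, as a 27-base run of the reference transcript across the junction of exon 23 with the next exon. They are shown because the edited codon and its surroundings are nearly the same in *Erbb3*, *Egfr* and *Erbb2*. *Erbb4* was not aligned here, although the paper's protein alignment has the same valine in human ERBB4.
*Erbb3*: tacatggtcatgGTCaagtgttggatg
*Egfr*: tacatgatcatgGTCaagtgctggatg
*Erbb2*: tacatgatcatgGTCaaatgttggatg

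The codon is GTC, for valine, in these genes, and it falls in exon 23 of each. It is codon 950 of *Egfr* and 957 of *Erbb2*, by alignment of the translated reading frames. The windows of *Egfr* and *Erbb2* each share 25 of their 27 bases with that of *Erbb3*. Only *Erbb3* was edited, to AGG for arginine. The codon stands 3036 bases before the annotated end of the *Erbb3* transcript. The libraries read transcript ends, so the allele itself was not read in these data, and the genotype of the cells rests on the labels. The authors report that they found the V943R allele expressed in mammary epithelial cells, by RT-PCR and sequencing.

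The other genes lie on chromosome 11 from 16752203 to 16918158 (*Egfr*, plus strand), on chromosome 11 from 98412470 to 98437716 (*Erbb2*, plus strand) and on chromosome 1 from 68032186 to 69108059 (*Erbb4*, minus strand). *Erbb2* overlaps *Mien1* and the small RNA gene *Gm25048*, and *Egfr* overlaps the antisense gene *Egfros*, all on the opposite strand. On the same strand, *Erbb3* overlaps the microRNA gene *Mir6917*, and *Erbb4* overlaps a pseudogene, a small RNA gene and predicted transcripts. Whether counting used strand is not given in the sources used here, and strand would not separate the latter, so reads of these overlaps cannot be assigned with certainty.

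The table held 18638 WT and 13801 mutant cells. Library totals ran from 30019745 to 38009351 UMIs (unique molecular identifiers, 1 for each captured transcript), with a median of 3400 per WT cell and 3840 per mutant cell. The deposited annotation placed cells in 13 clusters and in the classes luminal progenitor (LP, clusters 1 and 2), luminal intermediate (LI, cluster 3) and mature luminal (ML, clusters 4 through 11). Clusters 12 and 13 were rare. The luminal genes *Epcam*, *Krt8* and *Krt18* summed to 11169 to 11749 CPM (UMIs of a gene per 1000000 UMIs of the same cells) by library, against 19.3 to 23.5 for the 5 basal genes. The 4 progenitor genes summed to 1870 to 1973 CPM in LP cells against 53.7 to 57.3 in ML cells, and the 4 mature genes to 432 to 565 against 3107 to 3871. Of 31923 distinct cell barcodes, 511 occurred in more than 1 library.

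Over all cells, *Erbb3* was the one member with lower transcript levels in both mutant libraries than in both WT libraries. It stood at 60.9 CPM in WT library A and 63.3 in WT library B, against 29.8 in mutant library A and 30.8 in mutant library B. The WT libraries were close to each other, the mutant libraries were close to each other, and the genotypes did not overlap. From 4540 WT and 1895 mutant UMIs the log2 change was −1.03 (−1.11 to −0.96), a level 2.05-fold lower. The paper also reports a decrease of *Erbb3* mRNA in its mutant sample, by a smaller fold than this. How that fold was computed is not stated there, so the measures may be unlike. Among the 16402 genes with at least 50 UMIs and a finite ratio *Erbb3* was number 39 from the most lowered. Over all cells, no gene with as many WT UMIs as *Erbb3* was lowered more. Within the classes, 2 such genes were lowered more in LP, 3 in LI and 1 in ML cells. A gene was called where its level differed by a fold of at least 1.5 with both mutant libraries beyond both WT libraries. Of 16403 genes, 1.18% were called lower and 3.24% higher, and 54.4% had libraries apart at any fold. All 4 members had enough UMIs for the rule, and *Erbb3* was the only one called and the only one with libraries apart.

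**Figure D1:**
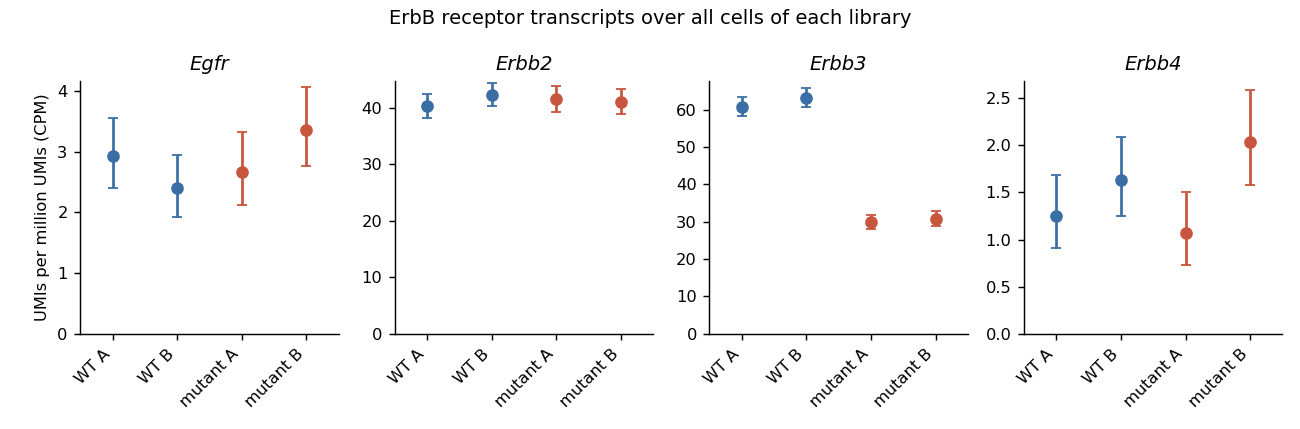
Transcript level (CPM, axis from 0) of each receptor gene over all cells of the 4 libraries, WT in blue and mutant in red, with exact Poisson 95% bars. *Erbb3* sits at 60.9 and 63.3 in WT and at 29.8 and 30.8 in the mutant, while the mutant and WT libraries of the other genes overlap.

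In the conditional allele, before Cre acts, a floxed cDNA of exons 23 through 28 ends in a foreign growth hormone end and polyadenylation signal. Transcripts of an unrecombined allele may therefore escape counting as *Erbb3*, and a lower level of *Erbb3* transcript cannot be told apart from uncounted unrecombined transcripts in these libraries. Other measures also moved with genotype. The 4 mature luminal genes (*Prlr*, *Esr1*, *Pgr* and *Cited1*) summed to 3700 and 3871 CPM in WT ML cells against 3107 and 3349 in mutant ML cells. In ML cells the fibroblast genes *Col1a1*, *Col3a1*, *Pdgfra* and *Dcn* summed to 14.8 and 13.7 CPM in WT against 5.33 and 4.26 in the mutant. The immune genes *Ptprc*, *Cd74* and *Cd52* went the other way there, at 2.03 and 3.31 against 5.84 and 3.58. The dissociation stress genes *Fos*, *Jun* and *Hspa1a* summed to 11896 and 12468 CPM in all WT cells against 9757 and 10326 in mutant cells. No gene of these lists was at 0 in the cells named, and their part in the *Erbb3* result was not tested.

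The lower level of *Erbb3* was found in each luminal class. In LP cells, which hold the *Kit*-expressing progenitors, it stood at 63.4 and 70.7 CPM in the WT libraries against 38.2 and 35.5 in the mutant libraries, a log2 change of −0.87 (−1.07 to −0.67). In LI cells the values were 69.6 and 73.5 against 37.4 and 39.4, a log2 change of −0.90 (−1.11 to −0.69). In ML cells they were 59.3 and 61.1 against 27.1 and 28.6, a log2 change of −1.11 (−1.21 to −1.02). *Erbb3* was called lower in all 3 classes, as were 0.606% of the genes tested in LP, 1.03% in LI and 1.58% in ML cells. The change in LP cells was smaller than that in ML cells by 0.24 on the log2 scale (0.02 to 0.46). Pairs of 1 mutant and 1 WT library gave −0.99 to −0.73 in LP and −1.17 to −1.05 in ML cells, so the classes did not overlap. The LI and ML changes differed by 0.21 (−0.01 to 0.44), an interval that includes 0. Library pairs gave −0.97 to −0.82 in LI cells, which did not overlap with the ML range either. In the mutant, *Erbb3* was 1.32-fold higher in LP than in ML cells (1.16 to 1.49), against 1.12-fold in WT (1.02 to 1.22).

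*Erbb3* was lower in the mutant in all 11 luminal clusters, with the interval below 0 and the libraries apart in all 11. The share of all genes with libraries apart in every cluster is not given here. The log2 change ran from −1.39 (−2.16 to −0.67) in cluster 9, the shallowest of the luminal clusters with median cells of 1532 and 1355 UMIs, to −0.79 (−1.01 to −0.565) in cluster 1. The median over clusters was −1.10. Of the 7196 genes with at least 20 UMIs in each of these clusters, 3.02% were lower at any fold in all 11. A fold of 1.5 in all 11 was met by 0.0139%, which is *Erbb3* alone. In the other direction *Gsta4*, a glutathione transferase named here after its values were seen, was the only gene higher by that fold in all 11. Within ML cells, cluster 6 had a change of −0.81 (−1.10 to −0.53) and cluster 10 one of −1.26 (−1.50 to −1.02), a pair of clusters named after their values were seen. Pairs of 1 mutant and 1 WT library gave −1.18 to −0.38 in cluster 6 and −1.34 to −1.17 in cluster 10, so these clusters overlapped. The WT libraries differed in cluster 6, at 42.5 and 61.0 CPM. Cluster 11, which held 2863 WT and 670 mutant cells, gave −0.85 (−1.19 to −0.52) against −1.11 in the other ML cells, a difference of 0.26 (−0.08 to 0.60). With the WT cluster makeup imposed on both genotypes the change over all cells was −1.03.

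**Figure D2:**
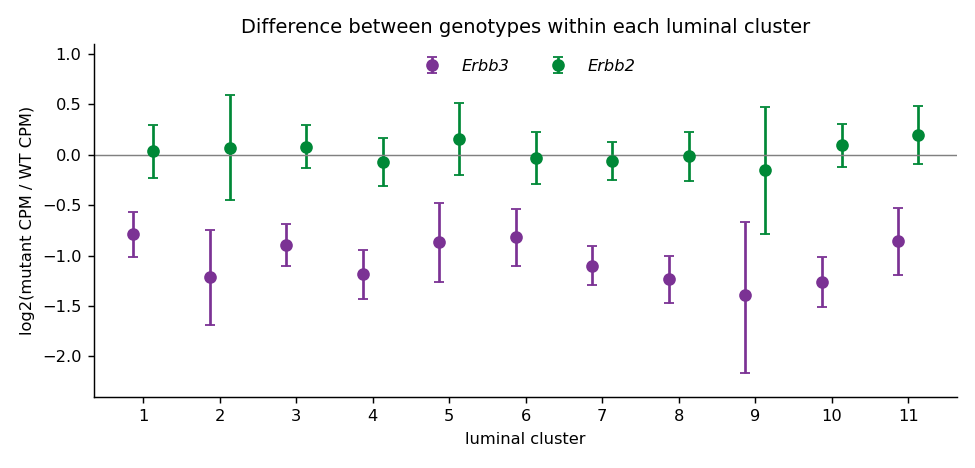
Log2 ratio of mutant to WT CPM for *Erbb3* (purple) and *Erbb2* (green) within each of the 11 luminal clusters, with 95% counting intervals. Every *Erbb3* interval lies below 0, from −1.39 to −0.79 at the points, and every *Erbb2* interval includes 0.

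In WT, *Erbb3* UMIs were counted in all 11 luminal clusters. Its level ran from 38.4 CPM in cluster 5 to 87.0 in cluster 9, a 2.27-fold range. From high to low the order was clusters 9, 8, 3, 1, 11, 2, 4, 7, 10, 6 and 5. The WT libraries of neighbouring clusters overlapped in 6 of the 10 steps of this order. They lay apart between clusters 8 and 3, 2 and 4, 4 and 7, and 6 and 5, and of these only the step from cluster 6 (46.4 to 58.6) to cluster 5 (32.8 to 44.6) also had separate counting intervals. The clusters were drawn from the same values, so this order is a description. In cluster 13, whose cells carried immune transcripts (*Ptprc*, *Cd74* and *Cd52* at 14616 to 19578 CPM summed), the WT level of *Erbb3* was 52.3 CPM (28.6 to 87.8) and the mutant level 21.2 CPM (6.90 to 49.6). Pooled over libraries, the WT level there was above those of luminal clusters 5 and 6, and the mutant level above that of cluster 5. Both intervals took in the levels of all 11 luminal clusters of the same genotype. By library, cluster 13 stood at 95.1 and 36.1 CPM in WT and at 16.7 and 25.9 in the mutant. In WT library B it lay below clusters 5 (36.9) and 6 (61.0). In mutant library A it lay below cluster 5 (21.8), so this order rests on pooling.

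At least 1 *Erbb3* UMI was present in 20.2% (19.6 to 20.7) of the WT and 11.9% (11.4 to 12.5) of the mutant cells. After thinning to 1000 UMIs per cell, for which 45 WT and 252 mutant cells were too shallow, the shares were 6.04% (5.70 to 6.39) and 2.87% (2.60 to 3.17). In cluster 13 the thinned share was 3.61% in WT and 1.30% in the mutant. Median depth there was 1899 and 1720 UMIs. That cluster held 14 *Erbb3* UMIs in 83 WT cells and 5 in 81 mutant cells, and 42.2% and 38.3% of its cells had an *Epcam* UMI. The thinned shares of luminal clusters ran from 3.18% (cluster 5) to 8.68% (cluster 9) in WT. Mutant shares ran from 2.19% to 4.35%. The interval of the WT share in cluster 13 (0.752 to 10.2) took in every luminal cluster, so *Erbb3* in single luminal clusters could not be told from the level in cluster 13 at this depth.

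*Erbb2*, the ligandless partner of ERBB3, had overlapping libraries in the 2 genotypes. It stood at 40.2 and 42.3 CPM in the WT libraries against 41.5 and 41.1 in the mutant libraries, so the mutant values lay between those of WT. The totals were 3018 and 2576 UMIs, and the interval of the log2 change was −0.08 to 0.08. In LP cells the level was 35.2 CPM in WT and 36.3 in the mutant, in ML cells 41.6 and 41.0, and in LI cells 47.2 and 49.9. The changes were 0.04 (−0.19 to 0.28), −0.02 (−0.11 to 0.07) and 0.08 (−0.13 to 0.29). In none of the 11 luminal clusters did the interval leave 0. The largest change, in cluster 11, was 0.20 (−0.09 to 0.48), from 49.0 and 48.6 CPM in the WT libraries to 54.8 and 57.1 in the mutant libraries. The mutant libraries were above the WT libraries in 3 clusters, 3, 10 and 11, and overlapped with them in the other 8. The share of all genes with libraries apart within a cluster is not given here. Over all cells it was 54.4%, so no difference is read from these 3 clusters.

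Among WT clusters *Erbb2* had the same first and last cluster as *Erbb3* and another order between them. It was highest in cluster 9 at 68.7 CPM and lowest in cluster 5 at 30.7, a 2.24-fold range, with clusters 11, 3, 6, 8, 7, 4, 10, 1 and 2 between them. The WT libraries overlapped for 6 of the 10 neighbouring steps, and lay apart from cluster 9 to 11, 11 to 3, 3 to 6 and 6 to 8. No step had separate counting intervals. Across the 11 clusters the log2(CPM + 1) levels of *Erbb2* and *Erbb3* had a Pearson r of 0.66 in WT and 0.55 in the mutant, over clusters that share libraries and differ in depth. *Erbb2* was lower in LP than in LI cells, 0.746-fold in WT (0.637 to 0.873) and 0.728-fold in the mutant (0.625 to 0.847).

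An *Erbb2* UMI was found in 15.0% of WT and 16.8% of mutant ML cells, and in 4.16% (3.84 to 4.50) and 3.73% (3.36 to 4.13) after thinning. In cluster 13 the thinned shares were 1.20% and 2.60%, and its levels were 14.9 CPM (4.07 to 38.3) for WT and 17.0 CPM (4.63 to 43.5) for mutant cells, from 4 UMIs in each genotype. Pooled over libraries, all 11 luminal clusters had higher *Erbb2* levels than cluster 13 in both genotypes, although 4 in WT and 7 in the mutant lay within these intervals. By library, cluster 13 stood at 0 and 20.6 CPM in WT and at 33.4 and 0 in the mutant. In mutant library A it lay above clusters 2 (30.3) and 5 (32.4). The mutant share in ML cells was thus the higher one before thinning and the lower one after it, with overlapping intervals after thinning, and no direction is read from it.

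**Figure D3:**
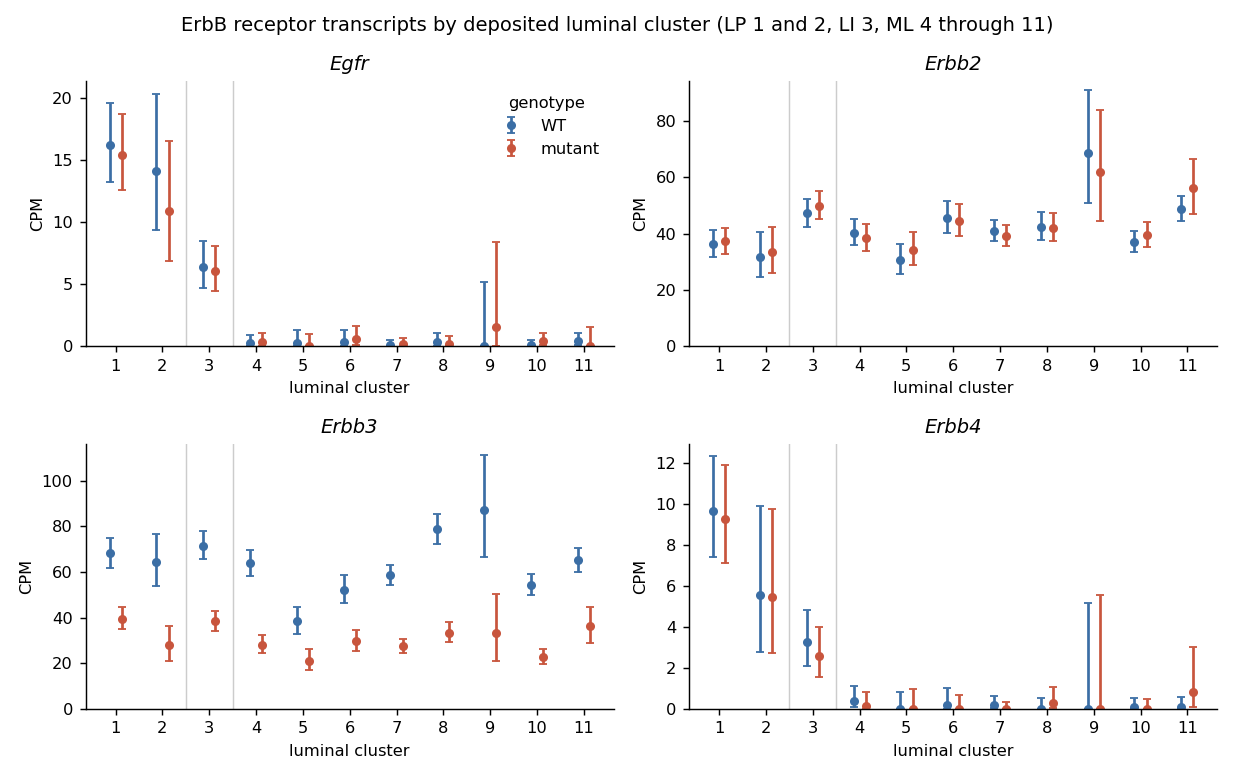
CPM (axes from 0) of each receptor gene in the 11 luminal clusters, WT in blue and mutant in red, with exact Poisson 95% bars, and vertical lines between the LP, LI and ML clusters. *Egfr* and *Erbb4* are seen in clusters 1, 2 and 3 and near 0 in the ML clusters, *Erbb2* and *Erbb3* in every cluster.

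Among the luminal classes, *Egfr*, the receptor of amphiregulin and other EGF-like ligands, was counted mostly in LP and LI cells. In WT it stood at 15.7 CPM in LP cells (13.2 to 18.6), at 6.35 in LI cells (4.67 to 8.45) and at 0.229 in ML cells (0.122 to 0.392). These came from 134, 47 and 13 UMIs. LP cells thus had 68.7 times the ML level (38.8 to 132) and 2.48 times the LI level (1.76 to 3.53). LP cells held 69.1% of all WT *Egfr* UMIs although they held 11.7% of all UMIs. The same order was found in the mutant, at 14.4, 6.05 and 0.263 CPM. It was also found in each library. The LP values were 17.6 and 14.1 CPM in the WT libraries against 13.4 and 15.2 in the mutant libraries, and the genotypes overlapped. The log2 change was −0.13 (−0.49 to 0.24) in LP cells and −0.07 (−0.68 to 0.55) in LI cells, so changes of up to those bounds could not be told from none.

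Over all cells *Egfr* stood at 2.94 and 2.39 CPM in the WT libraries against 2.66 and 3.36 in the mutant libraries. The change of 0.19 (−0.11 to 0.49) became −0.04 with the WT cluster makeup in both genotypes, where LP cells held 11.7% of WT but 13.9% of mutant UMIs and LI cells 10.1% and 12.4%. Among clusters the WT order began with cluster 1 at 16.2 and cluster 2, the proliferating progenitors, at 14.1, whose libraries overlapped. Cluster 3 followed at 6.35, apart from both. In cluster 2 both mutant libraries, at 10.82 and 11.03 CPM, lay below the WT libraries, at 14.9 and 13.3, a log2 change of −0.37 (−1.24 to 0.49) from 28 WT and 22 mutant UMIs. The libraries overlapped in clusters 1 and 3. Over all cells 54.4% of all genes had libraries apart at any fold, so no difference is read from cluster 2. No ML cluster exceeded 0.425 CPM in WT, and each rested on 4 UMIs or fewer. In ML cells as a whole 13 of 14188 WT cells and 12 of 9612 mutant cells had a UMI, 0.0916% and 0.125%. In the stromal-like cluster 12, marked by fibroblast and endothelial genes, 3 of 33 mutant cells held 5 *Egfr* UMIs, whereas 0 of 43 WT cells held any. A count of 0 of 43 allows a share of cells with a UMI of up to 6.98%, taken as 3 cells of the total. In cluster 13 the count was 0 of 83 and 0 of 81 cells, which allows up to 3.61% and 3.70% by the same limit.

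*Erbb4*, the neuregulin receptor with its own kinase activity, followed the same classes at lower counts. In WT it stood at 8.69 CPM in LP cells (6.82 to 10.9), 3.24 in LI cells (2.08 to 4.83) and 0.141 in ML cells (0.061 to 0.278), from 74, 24 and 8 UMIs. The mutant levels were 8.41, 2.58 and 0.109 CPM, from 73, 20 and 5 UMIs. The LI libraries stood at 2.66 and 3.85 CPM in WT against 1.51 and 3.70 in the mutant. The LI log2 change was −1.11 without mutant library B and 0.19 without mutant library A. The LP level was 61.6 times the ML level in WT (29.7 to 148) and 76.8 times in the mutant (31.5 to 244). By library the WT ratio was 108 in A and 46.3 in B, from few ML UMIs. The LP libraries stood at 7.93 and 9.37 CPM in WT against 6.07 and 10.4 in the mutant, with the mutant values on both sides of WT. The log2 change in LP cells was −0.05 (−0.53 to 0.44). Over all cells the libraries stood at 1.25 and 1.63 in WT against 1.07 and 2.04 in the mutant, a change of 0.11 (−0.30 to 0.52).

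Within LP cells, *Erbb4* was at 9.64 CPM in cluster 1 and 5.54 in the proliferating cluster 2, with libraries apart but a ratio of 1.74 whose interval (0.909 to 3.66) included 1. Cluster 3 followed at 3.24 and the ML clusters at 0.375 or less in WT. Over the 11 clusters the levels of *Egfr* and *Erbb4* had a Pearson r of 0.99 in WT and 0.92 in the mutant, which mostly sets clusters 1, 2 and 3 against the rest. An *Egfr* UMI was found in 4.15% of WT LP cells (1.62% after thinning) and an *Erbb4* UMI in 2.23% (0.953% after thinning). *Erbb4* was seen in 0 of 83 WT cells of cluster 13, which allows up to 3.61% and thus does not separate it from LP cells.

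The family thus fell into a pair counted in every luminal cluster and a pair counted mostly in the progenitor and intermediate classes. UMIs count captured transcript ends and capture may differ between genes, so levels are not compared from gene to gene. Most cells showed no member at this depth. No UMI of any member was found in 73.7% of WT and 78.2% of mutant LP cells, in 50.2% and 52.4% of the deeper LI cells and in 68.2% and 74.3% of ML cells. UMIs of at least 2 members were found in 3.87% and 2.88% of LP, 13.2% and 12.5% of LI and 3.51% and 2.77% of ML cells. A single cell, a mutant LP cell, held all 4.

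*Erbb2* and *Erbb3* UMIs were found together in 682 WT and 411 mutant luminal cells, 3.68% and 3.00%. The sum over cells of the product of both counts was divided by that expected from the rates of each cluster and library and the UMIs of each cell, so that 1 means no association within clusters. The ratio was 1.08 and 1.07 in the WT libraries against 1.36 and 1.23 in the mutant libraries. In ML cells it was 0.989 and 1.03 against 1.31 and 1.22. The genotypes overlapped in LP cells, at 1.55 and 1.01 against 1.41 and 1.30, and in LI cells, at 1.19 and 1.24 against 1.43 and 1.23. Without the 6% of cells with the most UMIs in each library, it was 1.01 in WT and 1.18 in the mutant, and in ML cells of mutant library A it was 1.04. For *Egfr* and *Erbb3* the ratio was 1.31 in WT, from 60 cells with both, and 0.995 in the mutant, from 32 cells, and without the same 6% of cells it was 1.29 and 1.24. The other 4 pairs shared at most 41 cells in a genotype. These ratios come from sparse counts and are given as values only.

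The spread of *Erbb3* among ML cells was larger in the mutant libraries. The spread is the sum of x(x − 1) over cells, with x the UMIs of a cell, divided by its value if every cell of the class had the same rate. It was 1.12 and 1.29 in the WT libraries against 1.58 and 1.87 in the mutant libraries. Of the ML cells, 55 and 79 in the mutant libraries and 200 and 270 in the WT libraries held 2 or more *Erbb3* UMIs. Genes within 0.8 to 1.25 times the level of *Erbb3* in the same cells had a median of 1.12 and 1.11 in WT and of 1.14 and 1.16 in the mutant. Their 95th percentiles were 2.31 and 2.51 in the mutant, above the values of *Erbb3*. The spread of *Erbb2* was 0.971, 1.13, 1.13 and 1.20 in the same order of libraries. In LP cells the *Erbb3* values were 1.04 and 1.55 in WT against 1.40 and 0.701 in the mutant, and in LI cells 1.21 and 1.20 against 1.28 and 1.02, without a separation of the genotypes.

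**Figure D4:**
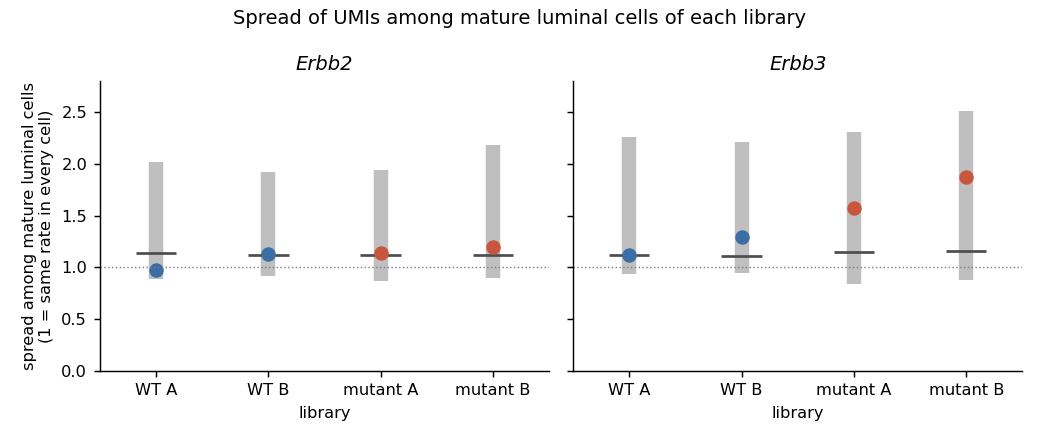
Spread of *Erbb2* and *Erbb3* UMIs among mature luminal cells of each library (points), where 1 (dotted) means the same rate in every cell. Grey bars run from the 5th to the 95th percentile of genes of like level and black ticks mark their median. The mutant *Erbb3* points, 1.58 and 1.87, lie above those of WT, 1.12 and 1.29, and within the grey bars.

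Most UMIs counted for ligands of the family were of *Areg*, which encodes the EGFR ligand amphiregulin. Capture may differ between genes, so this is a count and no comparison of levels. Over all cells *Areg* stood at 3153 and 3191 CPM in the WT libraries against 3649 and 3820 in the mutant libraries, a log2 change of 0.237 (0.228 to 0.245). The paper lists *Areg* among transcripts that were lower in WT cells of cluster 11. That cluster held 12.9% of WT but 3.86% of mutant UMIs. The change of *Areg* at equal cluster makeup is not given here, so it cannot be told apart from a shift in makeup. Among the luminal classes, *Areg* was counted mostly in LI and ML cells, at 2421 and 3708 CPM in WT against 343 in LP cells. It thus lay mostly outside the LP class, which held most *Egfr* UMIs of these sorted cells. The cells were sorted as luminal, whereas the paper places the EGFR needed for ductal growth at puberty in the stroma. Signalling between these cells was not tested. *Epgn*, which encodes the EGFR ligand epigen, was the one ligand called higher. It stood at 1.25 and 2.58 CPM in the WT libraries against 4.43 and 6.42 in the mutant libraries, a log2 change of 1.49 (1.20 to 1.78). The WT libraries also differed from each other, and the higher of them stayed below both mutant libraries. In ML cells its values were 1.44 and 3.14 against 5.47 and 7.67, and in LI cells 7 WT and 28 mutant UMIs were counted.

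The other ligands moved by less than *Epgn*. *Btc*, which encodes the EGFR and ERBB4 ligand betacellulin, stood at 39.0 and 39.6 CPM in WT against 43.0 and 49.98 in the mutant, a change of 0.25 (0.17 to 0.32). *Hbegf*, heparin-binding EGF, stood at 49.6 and 51.5 against 42.7 and 48.7, a change of −0.14 (−0.21 to −0.07). *Tgfa*, the EGFR ligand TGF-alpha, stood at 7.90 and 8.58 against 10.1 and 8.77, a change of 0.19 (0.02 to 0.36). *Nrg4*, a neuregulin that binds ERBB4, stood at 12.97 and 14.7 against 13.2 and 13.7, with overlapping libraries. Of its WT UMIs 910 were in ML cells, at 16.0 CPM, against 1.29 in LP cells where *Erbb4* was highest. The neuregulins that bind ERBB3 were almost unseen in these luminal cells. *Nrg1* had 7 WT and 9 mutant UMIs and *Nrg2* had 23 and 26. No *Nrg3* UMI was counted, and *Egf* had 15 and 12 UMIs and *Ereg* 0 and 2.

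**Figure D5:**
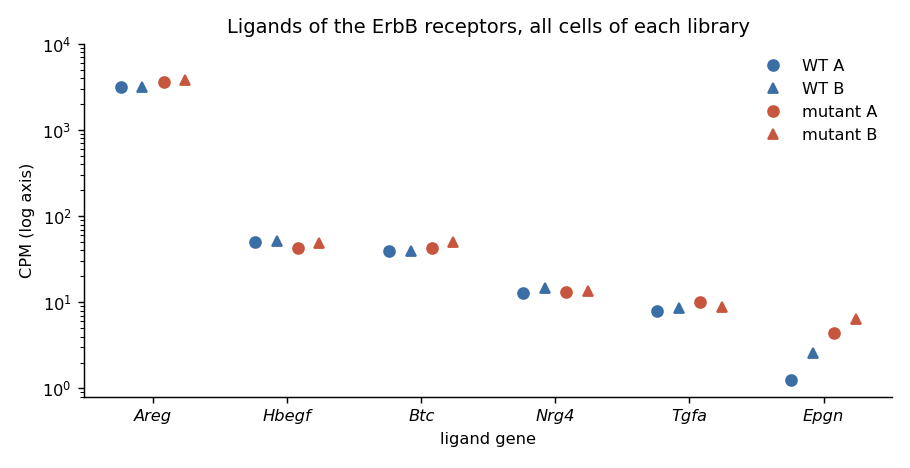
CPM on a log axis of the 6 ligand genes with at least 50 UMIs, over all cells of each library (circles for library A, triangles for B, WT in blue, mutant in red). *Epgn* rises from 1.25 and 2.58 in WT to 4.43 and 6.42 in the mutant, and *Areg* is at 3153 or more in all libraries.

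Over the EGFR and ERBB4 ligands as a list, 5 of 7 genes had enough UMIs, 1 was called higher (against 3.24% of all genes) and none lower (1.18%), with a median log2 change of 0.24 against 0.02 for all tested genes. The 4 genes of ligand release, which cut ligands from the membrane or guide the protease, had no call and a median of 0.09. Among them *Rhbdf2* changed by 0.15 (0.03 to 0.28), *Adam17*, the main sheddase, by 0.09 (−0.03 to 0.21) and *Rhbdf1* by 0.09 (0.00 to 0.17). Of the 19 receptor partners and turnover genes 18 had enough UMIs, none was called and the median was 0.03. The largest change there was that of *Errfi1*, the feedback inhibitor of EGFR and ERBB2 kinases, from 108 and 115 CPM to 125 and 132, or 0.21 (0.16 to 0.25). *Cblb*, a ubiquitin ligase for EGFR, changed by 0.17 (−0.08 to 0.42) and *Lrig1*, which lowers ErbB receptors on the membrane, by 0.16 (−0.003 to 0.33). In ML cells *Muc1*, a membrane mucin named here after its values were seen, was the 1 of 17 genes tested that was called lower, against 1.58% of all genes, at 5.12 and 6.01 CPM in WT against 3.56 and 3.46.

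Downstream of the receptors, none of the 24 adaptor and kinase genes was called over all cells, where 1.18% of all genes were called lower and 3.24% higher. With so few calls among all genes, the lack of a call in a list of this size shows little. The median log2 change of the list was 0.11, against 0.02 for all tested genes. The largest changes were those of *Akt2* at 0.23 (0.06 to 0.40), the phospholipase gene *Plcg1* at 0.22 (−0.01 to 0.45) and the transcription factor gene *Stat5b* at 0.20 (0.12 to 0.28). Within LI cells *Plcg1* was called higher, at 3.45 and 6.33 CPM in WT against 8.54 and 8.73, as 1 of the 23 genes of the list tested there, where 2.83% of all 10519 genes were called higher. Of the 14 ERK feedback genes 1 was called higher, against 3.24% of all genes. *Spry1*, an inhibitor of receptor tyrosine kinase signalling, stood at 11.4 and 10.97 CPM in WT against 17.3 and 19.4 in the mutant, a change of 0.71 (0.58 to 0.85). The change of *Spry1* was 0.87 (0.70 to 1.05) in ML cells, 0.52 (0.18 to 0.86) in LI cells and 0.25 (−0.00036 to 0.50) in LP cells. *Etv5*, an ERK-induced transcription factor gene, changed by 0.43 (0.26 to 0.61) with its libraries apart and under the fold of 1.5, and *Spry4* by 0.27 (−0.02 to 0.57). The list's median was 0.05, and its lowest value was that of *Fos* at −0.24, a gene also counted among the stress genes.

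A chosen list of 21 other receptor tyrosine kinases did not cover the whole class. Of these 12 had enough UMIs and none was called, against 1.18% of all genes called lower and 3.24% higher. Their median log2 change was 0.16, against 0.02 for all tested genes. *Kit*, the stem cell factor receptor that marks LP cells, stood at 36.7 and 37.8 CPM in WT against 49.4 and 52.5 in the mutant, a change of 0.45 (0.38 to 0.53). Within LP cells it was 0.27 (0.18 to 0.36). The ephrin receptor genes *Ephb4* and *Ephb3* changed by 0.31 (0.16 to 0.45) and 0.28 (0.17 to 0.38). Among the 16 receptors of this list and the family with enough UMIs, *Erbb3* was the only one called in either direction. Receptor tyrosine kinases outside the list were not looked at.

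The nearest 5 protein-coding genes on each side of *Erbb3* on chromosome 10 were also read. None was called, where 1.18% of all genes were called lower and 3.24% higher. The nearest, *Pa2g4*, which encodes the ERBB3-binding protein EBP1 and lies 1.54 kb away, stood at 301 and 306 CPM in WT against 270 and 278 in the mutant, a log2 change of −0.15 (−0.18 to −0.12). The other changes ran from −0.05 for *Ikzf4* to 0.33 for *Rps26*, a ribosomal protein gene. *Zc3h10*, *Esyt1*, *Suox* and *Rab5b* lay within 0.12 of 0, and *Rpl41*, *Myl6b* and *Cdk2* stood between 0.23 and 0.24. The largest lowering among these neighbours, −0.15 for *Pa2g4* with its libraries apart, was smaller than the −1.03 of *Erbb3*. Few genes were called lower anywhere, so the lack of a call here cannot show whether the wider locus was changed.

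Genes whose WT pattern over the 11 luminal clusters was most like that of *Erbb3*, among 12334 genes with at least 200 WT UMIs, were *Kidins220*, *Zfp62*, *Nek9*, *Gm15327* and *Zfp866*. Their Pearson r on log2(CPM + 1) ran from 0.93 to 0.95 in WT, with a mutant range of 0.51 to 0.92. For *Erbb2* they were *Acad12*, *Ppcdc*, *Fkbp15*, *Ralgapb* and *Gm26965*, with r from 0.95 to 0.97 in WT and a mutant range of 0.48 to 0.84. Each r was lower in the mutant, in which the genes had not been chosen. *Egfr* and *Erbb4*, with 194 and 106 WT UMIs, were under the minimum for this measure.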

How the data were processed

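The deposited signal values are UMIs of each cell multiplied by 1 factor per cell. The authors clustered the cells in Partek Flow with a Seurat setting of 0.6, and their cluster and class labels were used as given. The submitters' processing notes name bcl2fastq 2.20, CASAVA 1.8, GSNAP and GRCm38. Cell filters and doublet removal are not given in the sources used here, and no doublet caller was run. To recover UMIs, each value was divided by the lowest value above 0 in that cell. All 60853305 nonzero values came out within 0.02 of a whole number, the largest distance being 0.00989. All columns matched a labelled genotype. The table names libraries but not replicate numbers.

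UMIs were summed per library and scope and scaled to CPM in Python 3.11.15 with numpy 2.4.6, pandas 2.3.3 and scipy 1.17.1. Intervals are exact (Poisson for levels, conditional binomial for ratios, Clopper-Pearson for shares above 0, normal on the log scale for differences of changes). Genes needed 50 UMIs in the genotype with the higher CPM, and clusters 20. The fold rule was tried on simulated Poisson counts without variation between libraries, so its error rate in these data was not measured. Both ratios were tried on simulated counts with an equal and with a varying rate per cell. Named genes were the 4 members, ligands with 50 UMIs, called genes of each list or else its 3 largest changes, the 10 neighbours, and the 5 most alike genes. Members and lists were chosen with earlier results of these data known. Alternatives were other libraries, scalings, cell filters and minimums.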

Additional observations from a re-analysis of the deposited data

How the results depend on the processing

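No paired analysis was possible because each genotype was 1 pool, the libraries carried no replicate number, and no test was run. The log2 change of *Erbb3* over all cells stayed between −1.105 and −1.004 under 13 alternatives (1 library left out at a time, 2 other scalings, means over cells, cell filters, thinning, WT makeup), and within classes between −1.15 and −0.79. *Erbb2* over all cells stayed between −0.03 and 0.04. *Erbb4* over all cells, with 106 WT and 98 mutant UMIs, ran from −0.44 without mutant library B to 0.49 without mutant library A. Genes called lower were 193, and 404 or 115 with a minimum of 20 or 100 UMIs. Leaving out 1 library gave 145 to 319, the highest without mutant library B. Genes called higher were 532, and 967 or 297 with these minimums. Leaving out 1 library gave 314 (without mutant library A) to 819 (without WT library A). The *Erbb2* and *Erbb3* ratio in mutant cells moved from 1.29 to 1.18 without the 6% of cells with the most UMIs. The cause of these shifts was not tested. The counts of *Egfr* and *Erbb4* in ML cells, and of every member in clusters 12 and 13, were too few to show differences between genotypes.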
